A study of Homo sapiens with 10 samples.

Results

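The proteasome is the large protease that degrades ubiquitin-tagged proteins. The 44 genes described here are the rows of the deposited expression table whose symbol is PSMA, PSMB, PSMC, PSMD, PSME, PSMF or PSMG with a number, out of 12125 genes in the table; the inducible subunits PSMB8 and PSMB9 were left out by that rule, and PSMA8 and PSMB11 were not analysed here. They comprise 7 genes for 20S α subunits, 7 for constitutive 20S β subunits, the inducible β subunit PSMB10, 9 genes of the 19S base, 8 of the 19S lid, 4 activators, the inhibitor PSMF1, 4 assembly chaperones of the 20S core and 3 of the 19S base. The last 8 of these are proteasome proteins that are not part of a subunit ring or cap.

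H1 cells, an established human embryonic stem cell line, were carried towards hepatocyte-like cells and sequenced in bulk, with 1 library for each of 10 days. Day 0 received no factor; days 1, 2 and 3 were in 100 ng/ml Activin A; days 5 and 7 were in 30 ng/ml FGF4 with 20 ng/ml BMP2; days 9 and 11 were in HGF and KGF at 20 ng/ml each. Days 13 and 21 are labelled with Oncostatin M at 20 ng/ml, although by the stated lengths of the steps day 13 closes the step with HGF and KGF. The study names days 0, 3, 13 and 21 as the pluripotent, definitive endoderm, hepatoblast and hepatocyte-like stages, and cells kept without factors over the same days were not analysed here.

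In the intact proteasome, stacked rings of α and β subunits form a barrel, the 20S core, with the cutting sites on the inner face of certain β subunits. The 19S cap binds one or both ends of the barrel: its base holds the ATPases that unfold and feed in the substrate, and its lid removes the ubiquitin chain. Activators that do not need ubiquitin can take the place of the cap, and dedicated chaperones build the rings and the base and then leave. Pluripotent stem cells are known for high proteasome activity, and the subunit genes are known to be induced together by NFE2L1 when the protease is blocked.

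The values are whole numbers that the authors normalized for GC content. They are scores and not read counts, so the depth of a library is unknown. Each library had a median value of 81 or 82 and a maximum of 18734, and the totals lay between 2330948 and 2362740, so the libraries share nearly the same distribution of values. With 1 library a day there is no replicate and no test, and every difference below describes these libraries. A difference is that of log2(value + 1), and a gene is called higher or lower when the change was at least 2-fold on that scale and the larger value was at least 50. All genes that passed this minimum in a comparison form its background. No proteasome gene was listed at 0, the values lay between 8 and 982, and 43 of the 44 reached 50 on at least 1 day; the exception was PSMB10. Whether the values were divided by transcript length is not stated, so levels of different genes are not compared.

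The stage markers followed the labels in part. The pluripotency gene POU5F1 went from 4861 on day 0 to 5 on day 21, with 6498 on day 1. The endoderm gene SOX17 was highest on day 3 at 790, and the hepatocyte gene ALB reached 4866 on day 21. Other stage markers were high at other times. FOXA2 was 190 on day 3 and highest on day 7 at 343. The hepatoblast gene HNF4A was highest on day 7 at 1044 and was 838 on day 13. AFP was at the maximum of 18734 from day 7, and the hepatocyte gene TTR from day 9. Markers of other cells moved too. The summed value of 4 of 4 stromal collagen and proteoglycan genes was 314 on day 0, 213 on day 3, 18031 on day 13 and 19666 on day 21. Of 5 blood and macrophage markers, 3 were in the table, with a sum of 13 to 74 up to day 13 and 525 on day 21, while PTPRC, the marker of all leukocytes, was at 0 from day 3 to day 13. For 2 of 3 endothelial markers the sum was 520 on day 0, 249 on day 3, 975 on day 13 and 422 on day 21. Most of it was KDR, at 517 on day 0 and 302 on day 21, which the study lists as a mesoderm marker. The other, CDH5, was at 3 on day 0, 9 on day 3, 152 on day 13 and 120 on day 21. In bulk RNA, fewer cells of a type and less RNA per cell cannot be told apart. The part of these other cells in the proteasome values was not tested.

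Promoters are shown for the members the results turn on: the gene of the 20S core, of the base and of the lid with the largest difference between days 0 and 21, and the activator pair PSME1 and PSME2, whose course differed from that of the core. Each sequence is the 250 bases before the start site, 5′ to 3′ on the strand of the gene, from RefSeq on GRCh38.p14. Capitals mark letters that were searched on both strands: TGACNNNGC and TGAGNNNGC, the core of the antioxidant response element that NFE2L1 and NFE2L2 bind with small MAF proteins; CCAAT, the NF-Y box; and GCGCATGC, bound by nuclear respiratory factor 1, a different protein from NFE2L1.
PSMA2: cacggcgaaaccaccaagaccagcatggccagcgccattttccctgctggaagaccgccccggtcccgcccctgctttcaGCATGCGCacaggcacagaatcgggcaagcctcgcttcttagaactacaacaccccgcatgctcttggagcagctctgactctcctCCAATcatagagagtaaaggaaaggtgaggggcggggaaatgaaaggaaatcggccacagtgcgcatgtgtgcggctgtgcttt
PSMC3: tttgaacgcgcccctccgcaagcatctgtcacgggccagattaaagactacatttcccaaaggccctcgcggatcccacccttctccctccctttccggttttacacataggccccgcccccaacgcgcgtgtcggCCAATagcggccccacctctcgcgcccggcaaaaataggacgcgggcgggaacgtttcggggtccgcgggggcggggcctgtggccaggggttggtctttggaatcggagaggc
PSMD14: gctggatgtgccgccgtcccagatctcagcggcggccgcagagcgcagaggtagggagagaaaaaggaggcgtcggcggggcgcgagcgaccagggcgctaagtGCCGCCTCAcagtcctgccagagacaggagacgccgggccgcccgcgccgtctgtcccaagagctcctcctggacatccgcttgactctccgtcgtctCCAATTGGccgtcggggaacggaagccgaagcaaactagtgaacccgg
PSME1: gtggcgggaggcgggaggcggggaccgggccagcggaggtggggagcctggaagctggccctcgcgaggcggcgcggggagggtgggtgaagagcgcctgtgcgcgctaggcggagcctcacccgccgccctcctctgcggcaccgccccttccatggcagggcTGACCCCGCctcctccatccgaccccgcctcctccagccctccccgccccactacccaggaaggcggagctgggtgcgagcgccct
PSME2: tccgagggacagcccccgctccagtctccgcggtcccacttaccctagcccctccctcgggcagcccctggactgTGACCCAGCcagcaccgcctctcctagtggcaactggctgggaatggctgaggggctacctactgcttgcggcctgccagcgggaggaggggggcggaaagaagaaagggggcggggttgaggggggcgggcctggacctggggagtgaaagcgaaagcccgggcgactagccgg
The PSMA2 window is chr7:42932175-42932424 on the minus strand, with CCAAT starting 84 bases before the start site and the nuclear respiratory factor letters on the other strand at 170. The PSMC3 window, chr11:47426440-47426689 on the minus strand, has CCAAT at 114 bases. The PSMD14 window, chr2:161308175-161308424 on the plus strand, holds the response element core on the other strand at 146 bases, and CCAAT at 48 overlaps CCAAT on the other strand at 45. The activator windows, chr14:24135944-24136193 on the plus strand for PSME1 and chr14:24146611-24146860 on the minus strand for PSME2, hold the TGAC form of the core at 86 and 175 bases. A match of letters is a description and not a binding site.

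Of the 44 genes, 38 had an entry in the promoter table, with 46 windows, some of which overlap each other; each window ran from 250 bases before to 50 after a start site. PSMA7, PSMB1, PSMB6, PSMB7, PSMD4 and PSMG3 had none. The response element core lay in 22 of the 46 windows (47.8%), against 29.1% of all 35116 windows and 31.2% of the 12979 windows of genes in the expression table. The ETS letters CCGGAAG lay in 14 windows (30.4%) against 10.3% and 16.0%, and the YY1 letters AAGATGGC in 6 (13.0%) against 2.89% and 4.58%. CCAAT was found in 18 windows (39.1%) against 34.6% and 34.7%, the nuclear respiratory factor letters in 3 (6.52%) against 3.05% and 4.59%, and the heat shock letters TTCNNGAA in 3 (6.52%) against 7.74% and 6.13%. Among subunit genes of the core, base and lid, the median difference between days 0 and 21 was -0.91 for 14 genes with the response element core and -1.02 for 12 without, -1.12 for 15 with CCAAT and -0.88 for 11 without, and -0.81 for 10 with the ETS letters and -1.10 for 16 without.

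The subunit genes of the core, base and lid, 31 in all, were highest early and lowest at the end. The summed value of the 44 genes was 12942 on day 0, 0.554% of the table's total, and was largest on day 2 at 15949 (0.678%). It was 13396 on day 5, 10217 on day 7, 8830 on day 13 and 6248 on day 21 (0.268%). Of the 31 subunit genes, 27 had their highest value on day 1, 2 or 3, as had 30 of the 43 members that reached 50, against a background of 30.3% of 10746 genes. On day 21, 29 of the 31 were at their lowest, and 31 of the 43 members, against 28.3%. Scaled by the median of ratios, 26 of the 31 were lowest on day 21. The exceptions among the 31 as deposited were the ATPase genes PSMC2, lowest on day 7, and PSMC6, lowest on day 13.

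**Figure D1:**
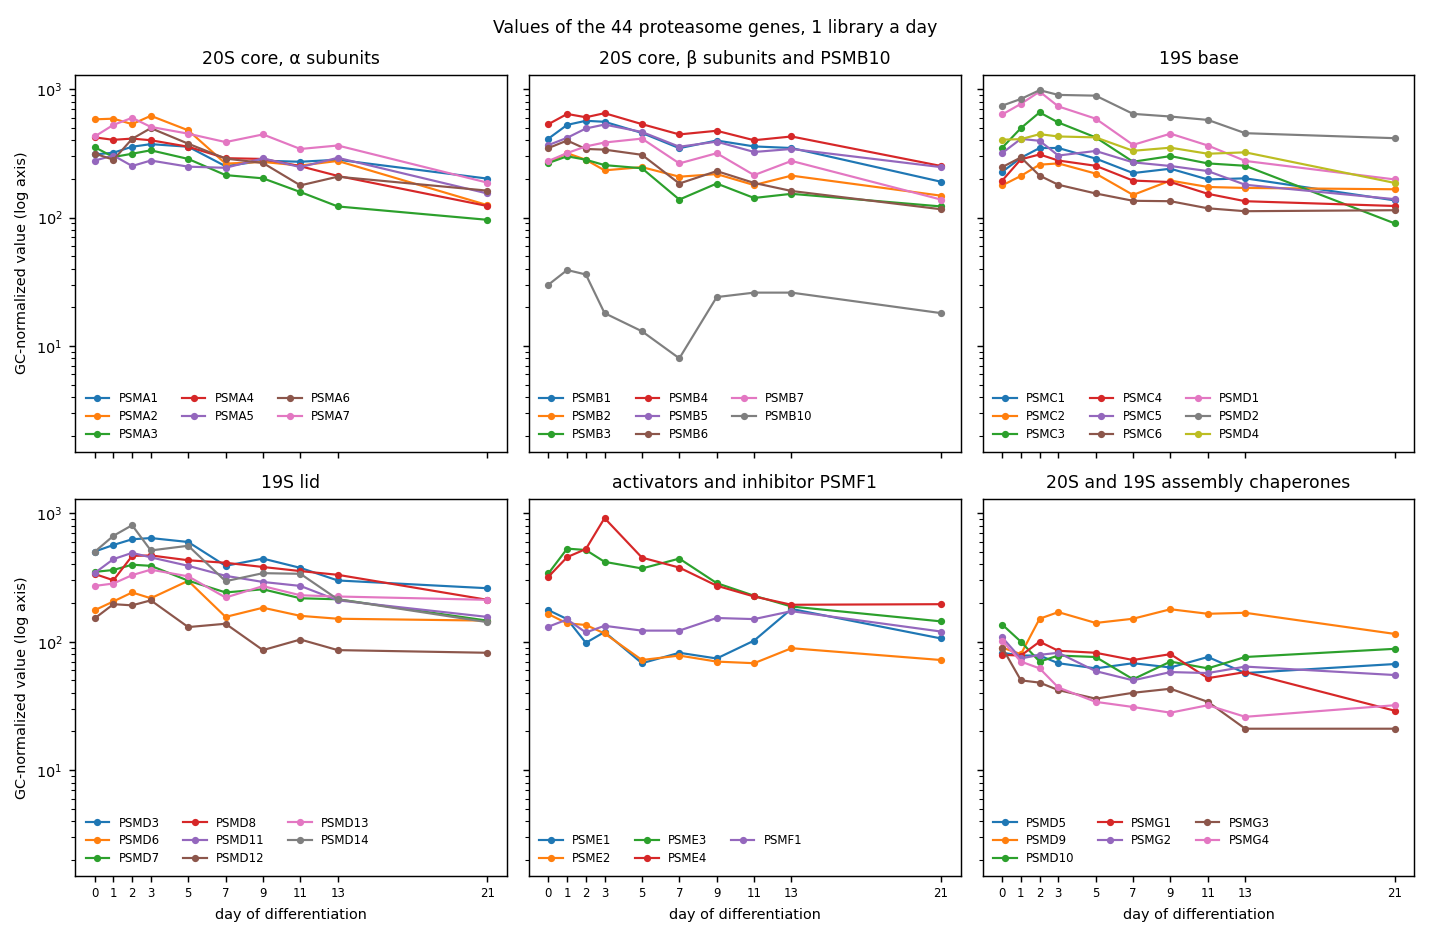
Values of the 44 genes on the 10 days, with 1 panel for each group of classes; the x axis is the day of differentiation and the y axis the GC-normalized value on a log scale, each line is 1 gene and each point 1 library, and heights of different genes are not comparable. Most core, base and lid genes run together, and all of them but PSMC2 and PSMC6 are lowest at day 21. PSME1, PSME2, PSMF1 and the chaperones other than PSMG1 follow other courses.

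Between days 0 and 3 the changes were small. Only PSME4 was called higher and only PSMG3 and PSMG4 were called lower among 43 members that passed the minimum, against 11.1% of 8934 background genes higher and 9.07% lower. The median over the members was 0.18, against -0.06 over the background. The lid was higher as a block, with 8 of 8 genes above 0 and a median of 0.38, and 7 of 9 base genes were above 0 with a median of 0.28. The β subunits had a median of 0.28, the α subunits 0.09, the activators -0.10, the 19S chaperones -0.27 and the 20S chaperones -0.74. Day 2 drew the cap and the core further apart: against day 0 the base median was 0.53 and the lid median 0.40, while it was 0.18 for the β subunits and -0.03 for the α subunits, of which 3 of 7 were above 0.

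Between days 3 and 13 no member was called higher and 13 of 41 were called lower, against 16.5% of 9298 background genes higher and 15.9% lower. The median was -0.69 for the members and -0.08 for the background. With day 11 in place of day 13, 7 members were called lower, and the share of all genes was not computed for that choice. The 13 were PSMA2, PSMA3 and PSMA6 of the α ring, PSMB6 of the β ring, PSMC3, PSMC4 and PSMD1 of the base, PSMD3, PSMD11, PSMD12 and PSMD14 of the lid, and the activators PSME3 and PSME4. All 8 lid genes and all 9 base genes were below 0, with medians of -0.98 and -0.78, as were 6 of 7 α genes (-0.92) and 7 of 7 β genes (-0.63). The 19S chaperones had a median of -0.04, and PSMF1 differed by 0.38 in the other direction.

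Between days 13 and 21 no member was called higher and 2 of 41, PSMA2 and PSMC3, were called lower; the background was 8.57% higher and 9.08% lower. The median was -0.47 for the members and -0.05 over the background of 8786 genes. In place of day 13, day 11 gave 4 members called lower, again without a share of all genes. From day 13 to day 21 the core differed more than the cap: 14 of 14 core genes were lower with a median of -0.64, against -0.37 for the 17 base and lid genes. With day 11 in place of day 13 the medians lay closer together, at -0.71 for α, -0.63 for β, -0.54 for the base and -0.55 for the lid. PSMB7, at 276 and 138, was exactly 2-fold lower as a ratio of values and just inside the limit at -0.99 on the log2 scale.

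From day 0 to day 21, 43 of the 44 members were lower, the exception being PSMD9. Of 43 that passed the minimum, 21 were called lower and none higher, against 26.4% and 23.9% of 9698 background genes, and the median was -0.98 for the members against -0.11. The call of 21 depended on the last library, since 8 were called lower between days 0 and 13, a comparison chosen after seeing the data because the blood and macrophage markers were higher on day 21. Scaling the libraries by the median of ratios moved the median of all genes by 0.19 between days 0 and 21. After it 14 members were called lower with a median of -0.79, and PSMC2 and PSMF1 joined PSMD9 above 0. The share of all genes called was not computed for days 0 and 13 or after this scaling. Whether the counts of 8 and 14 exceed that share is therefore unknown. The 21 comprised 4 of 7 α genes, 4 of 7 β genes, 5 of 9 base genes, 3 of 8 lid genes, 2 of 4 activators and 3 of 4 20S chaperones. The class medians were -1.19 for α, -1.08 for β, -1.11 for the base, -0.91 for the lid, -0.95 for the activators, -1.53 for the 20S chaperones and -0.29 for the 19S chaperones.

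**Figure D2:**
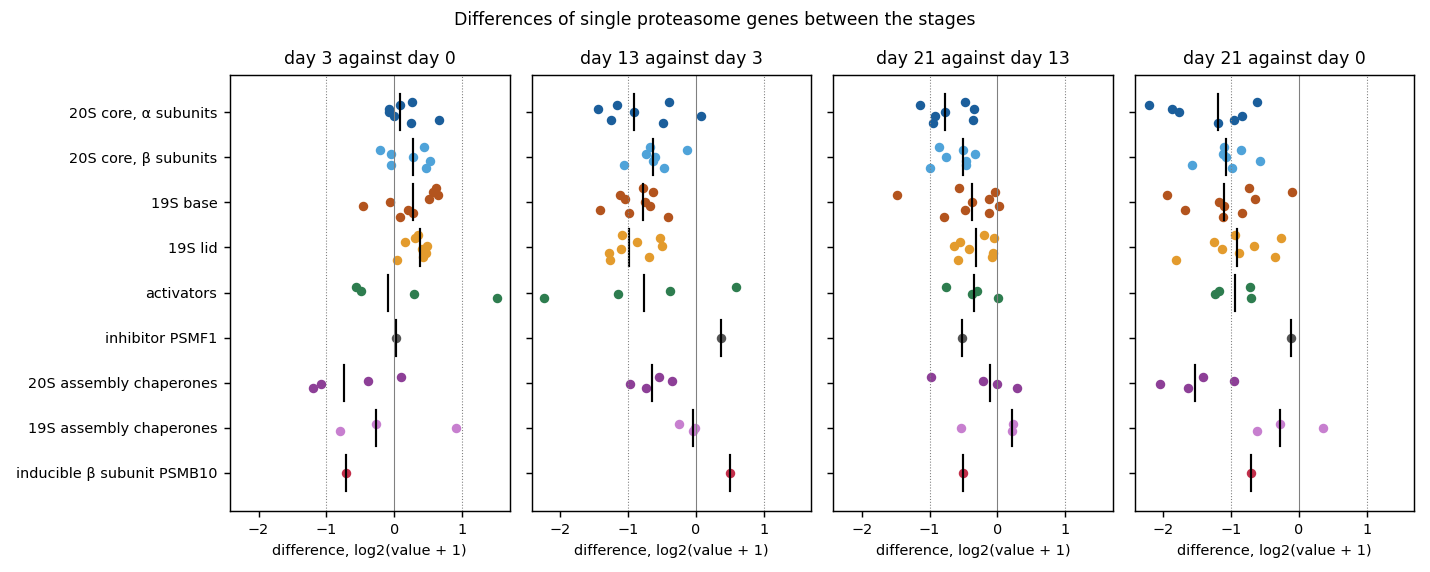
Difference of log2(value + 1) of each of the 44 genes in the 4 comparisons of stages; each point is 1 gene, the black bar is the median of its class, and the dotted lines mark 2-fold. Between days 0 and 21 only PSMD9 lies above 0 (with scaling by the median of ratios PSMC2 and PSMF1 would too), and between days 3 and 13 PSME4 lies furthest below it.

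In some steps between neighbouring days the classes differed in direction. From day 5 to day 7, within the FGF4 and BMP2 medium, 30 of 31 core, base and lid genes were lower with a median of -0.38, the exception being PSMD12, and 35 of the 43 members that reached 50 were lower, against 50.8% of 10746 genes. The activators went the other way, with 3 of 4 higher and a median of 0.18. From day 11 to day 13 all 8 lid genes were lower, with a median of -0.18 and the deubiquitinase gene PSMD14 furthest at -0.66. In the core, 10 of the 14 genes were higher, with a median of 0.09. Of 8486 background genes, 3992 were higher and 4287 lower, with a median of -0.01. Both class medians were smaller in size than the -0.23 of the 31 genes between days 9 and 11, which shared a medium. Against day 0, the median on day 13 was -0.33 for the core and -0.71 for the base and lid together. On day 21 the medians lay close together, at -1.10 for the core and -0.95 for base and lid, with the base alone at -1.11. On day 11 the core was also the lower of the 2, at -0.50 against -0.37. The order on day 13 was thus not that of the libraries before and after it.

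Days 9 and 11 shared a medium, as did days 1 to 3 and days 5 and 7, and none of these libraries are replicates. Calls were made for days 9 and 11 only. Between these 2 days no member was called, against 1.04% of 8444 background genes higher and 0.568% lower. Still, 30 of the 31 core, base and lid genes were lower on day 11, with a median of -0.23, and the SD of the difference over the 44 members was 0.211. The furthest were PSMG1 at -0.61 and PSME1 at 0.46. The median of the 31 genes was 0.15 from day 1 to day 2 and -0.03 from day 2 to day 3, so among these pairs the furthest was -0.38, between days 5 and 7. Days 13 and 21 share the Oncostatin M label, though not the step by its stated length, and are not among these pairs. The median of the 31 genes between them was -0.48.

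**Figure D3:**
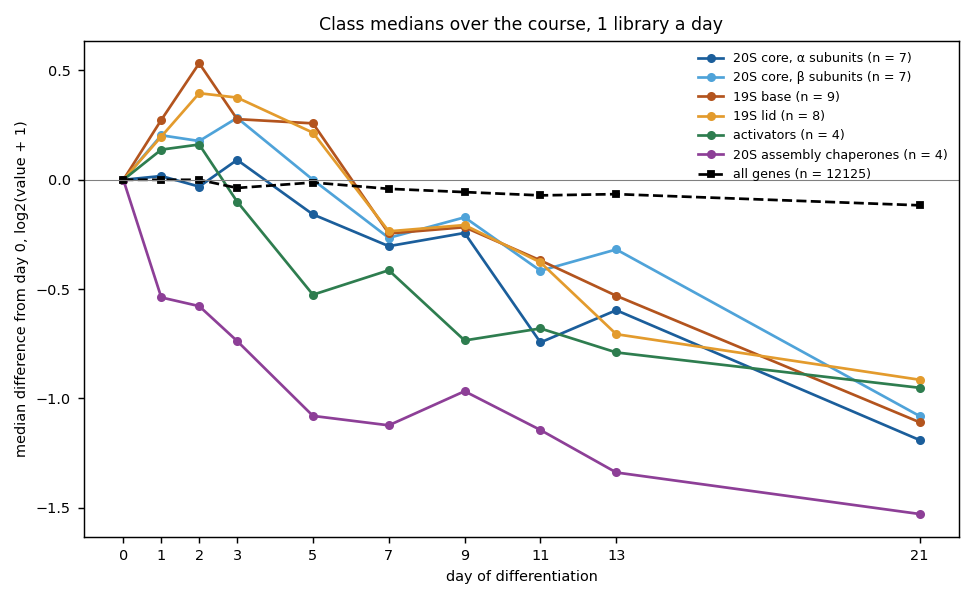
Median difference from day 0 of log2(value + 1) for 6 classes of proteasome genes, with the median of all 12125 genes as a dashed line; the x axis is the day and each point is 1 library. The base and lid stand above the α subunits on day 2, the 20S chaperones are below 0 from day 1, and all 6 classes end below the line of all genes.

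The α subunits form the outer rings of the barrel, and their tails close its gate. In order from day 0 to day 21, which is used throughout, PSMA2 (ENSG00000106588) had values of 582, 589, 534, 620, 478, 263, 271, 254, 276 and 125. Its values were thus high and level up to day 3, lower and level from day 7 to day 13, and lower again on day 21, 4.66-fold below day 0 with a difference of -2.21, the largest of the 44 genes in this comparison. For PSMA3 they were 353, 296, 314, 334, 286, 214, 202, 158, 122 and 96, a decline at every step after day 3 that came to -1.45 by day 13 and -1.87 from day 0 to day 21. For PSMA4 they were 421, 403, 412, 400, 356, 290, 286, 251, 211 and 123. This is the same slow decline, with a difference of -1.77 from day 0 to day 21. PSMA6 instead peaked at the endoderm stage, with 315, 282, 410, 497, 376, 288, 266, 178, 208 and 162, and PSMA7 on day 2, with 428, 527, 598, 508, 450, 387, 444, 342, 364 and 187. The remaining α genes moved least. PSMA1 had 310, 320, 356, 373, 356, 251, 277, 272, 282 and 201, a range of 0.89 on the log2 scale, and PSMA5 stayed between 244 and 304 up to day 13 and was 154 on day 21.

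The β subunits form the inner rings. PSMB5, PSMB6 and PSMB7 carry the chymotrypsin-like, caspase-like and trypsin-like cutting sites, and the others are structural. PSMB6 differed most, with 348, 398, 342, 338, 308, 184, 230, 186, 161 and 116, a 3-fold lower value on day 21 than on day 0. PSMB7 had 276, 318, 358, 384, 412, 264, 317, 214, 276 and 138, a later peak on day 5 and the same value on days 0 and 13. PSMB5 had a highest value of 530 on day 3 and was 247 on day 21 against 367 on day 0, the smallest difference of the core at -0.57. The 3 catalytic genes therefore differed in the day of their peak and in the size of their change, although each was lowest on day 21. Over the 10 days their correlations with the mean of the other core, base and lid genes were 0.94 for PSMB5, 0.96 for PSMB6 and 0.88 for PSMB7.

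Among the structural β genes, PSMB1 had 412, 527, 567, 557, 456, 347, 398, 358, 348 and 190, and PSMB4 had 534, 641, 604, 650, 534, 444, 474, 400, 428 and 252. Both were above day 0 on days 1 to 3 and called lower on day 21, at -1.11 and -1.08. PSMB3, with 266, 300, 282, 256, 242, 138, 184, 142, 153 and 122, came down mostly between days 5 and 7. PSMB2, with the smallest range of the class at 1.09, had 269, 317, 282, 233, 247, 208, 218, 179, 212 and 148.

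PSMB10 replaces PSMB7 in the immunoproteasome, the form that interferon induces. Its values were 30, 39, 36, 18, 13, 8, 24, 26, 26 and 18. They never reached 50, so no 2-fold call was made for it, and over the 10 days its correlation with PSMB7 was 0.066. It was lowest on day 7, not on day 21. The sign of its difference from day 0 depends on the day taken for the endoderm stage, being -0.71 on day 3 and 0.26 on day 2.

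In the 19S base, the PSMC genes encode the ring of ATPases, and PSMD1 and PSMD2 its large scaffold subunits. PSMC3 (ENSG00000165916) had the largest range of all 44 genes, 2.86 on the log2 scale, with 350, 497, 659, 550, 421, 272, 301, 264, 253 and 90. It was high on day 2, at 0.91 above day 0, and its last step from 253 to 90 gave the difference of -1.48 that was the largest of any member between days 13 and 21. PSMD1 had 635, 768, 957, 734, 589, 368, 450, 364, 276 and 198, also with its peak on day 2, and was called lower from day 3 to day 13 at -1.41. PSMC4 shared the peak, with 194, 284, 310, 278, 253, 194, 189, 153, 134 and 123, but was called only between days 3 and 13.

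PSMC5 and PSMC6 were highest on day 1. PSMC5 had 318, 410, 396, 304, 330, 269, 252, 230, 180 and 139, and PSMC6 had 247, 294, 212, 180, 154, 135, 134, 118, 112 and 114. PSMC6 was the base gene that came down first: it was already at -0.45 on day 3, the lowest of the 31 subunit genes, and was level from day 11. PSMC2 ended near its day 0 value, with 178, 211, 258, 264, 220, 150, 194, 173, 170 and 166 and a difference of -0.10 between days 0 and 21. PSMD4, a ubiquitin receptor, stayed between 314 and 446 up to day 13 and was 186 on day 21, with values of 404, 408, 446, 428, 421, 331, 350, 314, 322 and 186. PSMD2 was lower on day 21 than on day 0, at 415 against 744, and PSMC1 at 136 against 227, neither of them past 2-fold. PSMC1 has 13 named pseudogenes in GENCODE release 29, the most of the 10 members with any, and reads of such copies could have been shared, so its values are less certain. The others with named pseudogenes are PSMA2, PSMA6, PSMB3, PSMB7, PSMD4, PSMD7, PSMD8, PSMD10 and PSME2.

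In the 19S lid, PSMD14 is the metalloprotease that cuts ubiquitin chains off the substrate, and PSMD7 is its partner. PSMD14 (ENSG00000115233) had 502, 668, 808, 514, 559, 296, 342, 338, 214 and 142. Its peak on day 2 was 0.69 above day 0, it was nearly back on day 3, and it was 3.54-fold below day 0 on day 21, the largest difference and range (2.50) of the lid. PSMD7 had 350, 362, 398, 390, 299, 242, 256, 218, 214 and 146, with no sharp peak. Its course was the one most like that of the other core, base and lid genes.

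The rest of the lid is scaffold. PSMD3 had 504, 567, 628, 642, 598, 390, 444, 376, 300 and 261, and PSMD11 had 343, 440, 492, 454, 390, 326, 292, 272, 210 and 156. Both were called lower from day 3 to day 13, at -1.10 and -1.11, and PSMD11 also from day 0 to day 21. PSMD12, with 152, 196, 192, 210, 130, 138, 86, 104, 86 and 82, was at its lower level by day 9 and was the only lid gene higher on day 11 than on day 9. At the other end, PSMD13 had the smallest range of the 31 genes, 0.78, with 272, 284, 330, 364, 323, 221, 271, 230, 225 and 212. PSMD6 and PSMD8 were also not called, with day 0 and day 21 values of 176 and 146 for PSMD6 and of 337 and 212 for PSMD8.

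The activators formed no common course. PSME1 and PSME2 make up the ring that interferon induces and that favours peptides for antigen presentation. PSME1 (ENSG00000092010) had 176, 150, 98, 119, 68, 82, 74, 102, 180 and 106, and PSME2 (ENSG00000100911) had 164, 139, 135, 116, 72, 78, 70, 68, 89 and 72. Both were highest at the pluripotent stage, leaving aside day 13 for PSME1, and both were low from day 5 to day 9. They separated on day 13, when PSME1 was near its day 0 value again, 0.81 above day 11, and PSME2 was not. Their correlation over the 10 days was 0.64. In the table their intervals, chr14:24605367-24608176 and chr14:24612574-24613161, lie 4397 bases apart. The table does not name its build, so these are not to be set beside the promoter coordinates.

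PSME3 and PSME4 encode nuclear activators, the second of them known for its part in chromatin and DNA repair. PSME4 had 321, 456, 527, 918, 452, 378, 273, 225, 194 and 196, a peak on day 3 at 1.51 above day 0 and -2.24 from there to day 13, the largest differences of any member in these comparisons. The call of a higher value rests on the day 3 library, because on day 2 the difference was 0.71. PSME3 had 341, 531, 518, 419, 372, 444, 286, 228, 188 and 144, with its highest value on day 1 and a further high value on day 7, when most subunit genes were low. The correlation of PSME3 and PSME4 was 0.82. The inhibitor PSMF1, which binds the 20S core, was nearly level, with 131, 149, 118, 133, 122, 122, 153, 150, 173 and 120 and a range of 0.55.

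Of the assembly chaperones of the 20S core, 3 of 4 had their highest value on day 0. PSMG1 with PSMG2, and PSMG3 with PSMG4, form the pairs that begin the α ring. PSMG3 had 90, 50, 48, 42, 36, 40, 43, 34, 21 and 21, and PSMG4 had 102, 70, 62, 44, 34, 31, 28, 32, 26 and 32. Both were highest on day 0 and were called lower on day 3 and on day 21, with -2.05 and -1.64 for the whole course, but at a level where 1 unit counts for more: with a minimum of 200 in place of 50 neither entered the comparison. PSMG1 had 79, 78, 100, 85, 82, 72, 80, 52, 58 and 29, with all values of 72 or more up to day 9, and PSMG2 had 108, 74, 79, 82, 59, 50, 58, 57, 64 and 55. PSMG2 was thus lower from day 1, at -0.54 against -0.54 for PSMG4, while PSMG1 was above its day 0 value on days 2, 3, 5 and 9.

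PSMD5, PSMD9 and PSMD10 hold the ATPases of the base before the cap is complete. PSMD9 was above its day 0 value at the end under every scaling, with 90, 80, 151, 170, 140, 151, 179, 165, 168 and 115. PSMD10 was the reverse, with 136, 100, 70, 78, 76, 51, 70, 62, 76 and 88, and PSMD5 was level, with 82, 78, 78, 68, 62, 68, 63, 76, 57 and 67. Their pairwise correlations over the 10 days had a median of -0.58, so the 3 genes had no shared course.

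Likeness was measured as the Pearson correlation over the 10 days of a gene's log2(value + 1) with the mean of the other core, base and lid genes. The points share 1 differentiation and 1 library a day, and the values are a description. Among the 31 subunit genes the median was 0.95, the lowest 0.66 for PSMA5 and the highest 0.99 for PSMD7, and 26 were at 0.8 or more, as were 18% of 10746 genes of the table against the mean of the 31. Of the other 13 genes 3 reached 0.8: PSMG1 at 0.92, PSME3 at 0.90 and PSME4 at 0.84. PSMF1 at -0.16 and PSMD9 at -0.13 were below 0, and PSME1 was at 0.00. Between pairs of genes of a class the median correlation was 0.91 for the β subunits, 0.89 for the base, 0.85 for the α subunits, 0.84 for the lid, 0.70 for the 20S chaperones and 0.53 for the activators. The range over the course had a median of 1.39 over the 44 genes, against 1.65 over 10746 genes of the table.

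**Figure D4:**
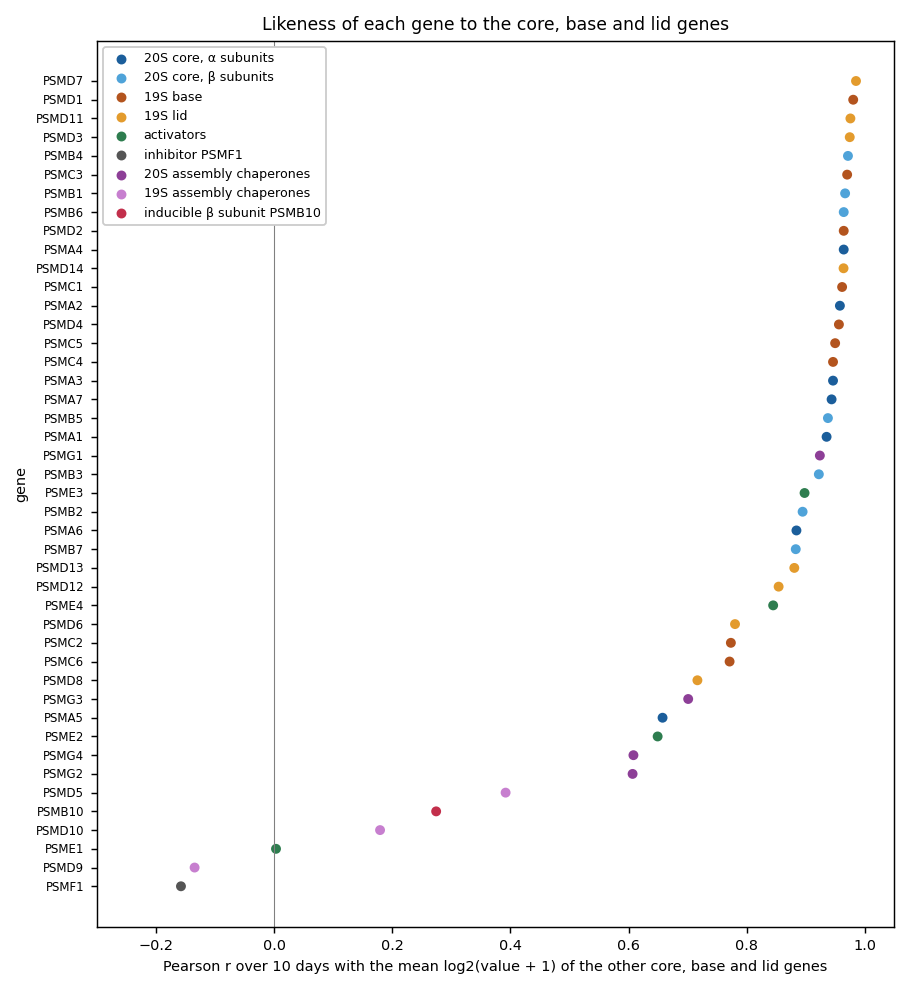
Pearson correlation of each gene with the mean of the other core, base and lid genes over 10 days (x axis), with genes in order on the y axis and coloured by class. The 31 core, base and lid genes lie at 0.66 or above, and PSMF1, PSMD9 and PSME1 lie at or near 0.

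The members are spread over 17 chromosomes, with 7 of 44 on chromosome 14 and 7 on chromosome 17 (15.9% each), where 3.55% and 5.72% of the genes in the table lie. On chromosome 14 lie PSMA3, PSMA6, PSMB5, PSMC1 and PSMC6, with correlations of 0.77 to 0.96 with the mean of the other core, base and lid genes. The remaining members there, PSME1 and PSME2, were at 0.00 and 0.65.

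Other genes of the ubiquitin and proteasome system, 26 of them in the table, were set beside the members. Between days 0 and 21, 4 of 26 were called lower and 1 higher, with a median of -0.61. Both counts were below the background shares of 26.4% lower and 23.9% higher. Those called lower included ADRM1, a ubiquitin receptor of the base, SHFM1, a small cap subunit, and MAFG, a partner of NFE2L1, and the gene called higher was MAFK, another such partner. ADRM1 had 395, 488, 488, 414, 304, 254, 276, 234, 192 and 151. Like most base genes it was above day 0 on days 1 to 3 and lowest on day 21. On day 5 it was already below day 0, when the base median was still 0.26 above it. POMP, the maturation factor of the 20S core, was lower without a call, at 210 on day 0 and 124 on day 21. NFE2L1 was at 1000 on day 0 and 659 on day 21. NFE2L2, the related factor of the oxidative stress response, instead went from 96 on day 0 to 308 on day 7 and 137 on day 21. From day 3 to day 13, 4 of 25 were called lower, which were ADRM1, the deubiquitinase USP14, the unfolding ATPase VCP and MAFG, and none higher. The background was 15.9% lower, near the share of these genes, and 16.5% higher.

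Other multi-subunit complexes of the cytosol were taken for comparison. From day 0 to day 21 the chaperonin had 7 of 8 genes called lower and a median of -1.73, the translation factor eIF3 8 of 13 and -1.21, and the COP9 signalosome, a relative of the lid, 3 of 9 and -0.68. Of the background genes, 26.4% were called lower. From day 3 to day 13 their medians were -0.89, -0.01 and -0.11, against -0.75 for the 31 core, base and lid genes. In that interval alone these genes lay nearest to the chaperonin. From day 0 to day 21 the 31 genes had -1.08, nearest to eIF3. From day 13 to day 21 they had -0.48, nearest to the signalosome at -0.39, with the chaperonin at -0.89. Between days 0 and 3 they had 0.28, again nearest to the signalosome, at 0. These lists were not tested against each other.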

How the data were processed

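RNA-seq of H1 cells at 10 days of hepatic differentiation was analysed, with 1 library a day. The authors estimated expression with RSEM (version 1.2.17) on Bowtie2 alignments (version 2.2.0), both as listed in the submitters' processing notes, and normalized for GC content with EDASeq. The values deposited are scores in whole numbers, not read counts, and nearly the same distribution of values in all libraries leaves the depth unknown. The scale cannot show a difference in total RNA.

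Differences of log2(value + 1) were computed in Python (version 3.11.15), using scipy (version 1.17.1), pandas (version 2.3.3) and numpy (version 2.4.6), and matplotlib (version 3.10.9) drew the plots. A call needed a 2-fold difference and a larger value of at least 50. The code was tested on simulated data. Count models were not applicable and no p-value is given. The members and the lists of other genes were chosen with earlier results of these data known. Values on all days are given for members past 2-fold in any comparison of stages, for the largest and smallest range of each class, and for PSMB7, PSMB10, the activators, PSMF1 and the PSMG genes; further members are named by their values. Alternatives were other pseudocounts, minima, fold limits, scalings, neighbouring days and leaving out genes that reach 2000. Pseudogenes and transcript lengths come from GENCODE release 29 and promoter sequences from RefSeq. Protein sequences were not analysed here, and levels per length were left out. The values of 1 gene on the list of other ubiquitin and proteasome genes are not reported here.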

Additional observations from a re-analysis of the deposited data

How the results depend on the processing

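Of 307 values compared with their alternatives, 283 stayed within 1.5 times the count or within 0.211 of the log2 median, and 24 did not. Of all 307, 9 changed sign: 6 with day 2 in place of day 3, 1 with day 11 in place of day 13 and 2 with scaling by the median of ratios. Pseudocounts of 0.1 and 5, scaling by the upper quartile and no minimum turned no sign and moved no value past these limits. Scaling by the upper quartile could change little, because the libraries share nearly the same distribution of values. The pseudocounts could also change little, because most member values are far above 5. Leaving out genes that reach 2000 could change nothing, because the largest member value was 982. Its 40 values, counted among the 283, are therefore no check of the results. Scaling by the median of ratios gave 14 calls in place of 21 from day 0 to day 21, brought the β and base medians there to -0.89 and -0.92, and turned the sign of PSMF1 there (0.061) and of the 19S chaperones from day 3 to day 13 (0.051). At a fold of 1.5 the members called were 5 higher on day 3 against day 0 (1 at 2-fold), 1 higher and 25 lower on day 13 against day 3 (0 and 13), 13 lower on day 21 against day 13 (2) and 36 lower on day 21 against day 0 (21). With a minimum of 200, 0 were lower on day 3 against day 0 (2 at 50). Day 2 in place of day 3 gave 0 higher and 0 lower against day 0. It gave medians from day 0 of 0.53 for the base and 0.16 for the activators, the latter from -0.10, and 0.26 for PSMB10, the reverse of -0.71. Against day 13 it gave -1.11 for the base, -1.02 for the activators, -0.97 for the 20S chaperones and, for PSMB10, -0.45 where day 3 gave 0.51. Day 11 in place of day 13 gave 7 lower against day 3 and 4 lower on day 21. Its medians were -0.67 for the α subunits and -0.70 for the lid from day 3. To day 21 they were -0.55 for the lid, -0.18 for the 19S chaperones (0.21 with day 13), -0.072 for the activators and -0.36 for the 20S chaperones. Day 13 in place of day 21, chosen after seeing the data, gave 8 lower against day 0. The share of all genes called was not computed for any of these alternatives. The cause was not tested. No paired analysis was possible because each day has 1 library. The unknown depth and the lack of replicates limit all values, and genes below 50 such as PSMB10 and the later values of PSMG3 and PSMG4 most.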
